A study of Mus musculus with 2 samples.

Results

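Small RNA from plasma extracellular vesicles (EVs) of sedentary mice (sEVs) contained 34 mature miRNAs that had at least 1 raw count there and 0 counts in the EVs of exercised mice (eEVs), after setting aside the let-7 guide strands and the best known blood cell, liver, repeat-related and small nucleolar RNA-related miRNAs. They came from 51 species counted only in sEVs and 117 species with a count in either library. Both groups were wild type C57BL/6 mice of 8 weeks of age on normal chow. One group stayed sedentary, and the other was acclimated to a treadmill over 3 days and then ran for 60 min to exhaustion at speeds rising from 10 to 24 m/min. Plasma of 20 mice per group was pooled to about 10 ml, EVs were isolated by size exclusion chromatography, and 1 small RNA library per group was read over 50 nt. Pooling leaves no replicates, so no value below describes variation among mice. The 34 miRNAs were chosen by these raw counts (1 or more in sEVs, 0 in eEVs), and the difference between libraries is therefore given as a description without a test.

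A miRNA hairpin is cut to a short duplex of a 5p and a 3p arm, of which Argonaute proteins usually keep 1 as the guide, while the passenger strand is mostly degraded. The guide finds messenger RNAs mainly through its seed, bases 2 to 8 from the 5′ end, so that miRNAs with the same seed are grouped as a family. Circulating EVs carry miRNAs of many donor cells, and in plasma those of blood cells, endothelium and liver are usually the most abundant.

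The 8 mature sequences below are the most counted of these 34 species for which RefSeq (GRCm38.p6) lists a sequence, and are shown because only they, with miR-143-3p, had more than 4 counts. Seeds are in capitals.
mmu-miR-872-3p: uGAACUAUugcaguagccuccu
mmu-miR-101b-3p: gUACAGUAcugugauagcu
mmu-miR-101b-5p: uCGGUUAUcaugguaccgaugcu
mmu-let-7c-1-3p: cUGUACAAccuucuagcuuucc
mmu-miR-29c-3p: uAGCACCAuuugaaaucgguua
mmu-let-7a-2-3p: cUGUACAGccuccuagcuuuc
mmu-miR-7051-3p: uGAGCCACugauuccugugugc
mmu-miR-7051-5p: uCACCAGGaggaaguuggguca
All 8 seeds differ from each other over bases 2 to 8. The 3p arms of let-7c-1 and let-7a-2 share bases 2 to 7 and differ at 2 of the 21 bases compared. A RefSeq sequence was matched for 28 of the 34 species, the others being miR-143-3p, miR-1839-3p, miR-1966-5p, miR-6981-5p, miR-30d-5p and miR-712-3p. The 28 had a median length of 22 nt and a median GC content of 47.7%, against 47.8% over the 57 matched species among the 66 counted in eEVs. A first base of U was found in 13 of the 28 (46.4%) and in 27 of those 57 (47.4%), so these shares and medians were close in both sets.

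In total, 2851 miRNA counts were recorded for sEVs and 820 for eEVs, a ratio of 3.48. The 34 species together had 141 counts, which is 4.95% of the sEV library (95% Wilson interval 4.21% to 5.80%). A count of 0 allows up to 3 counts, or 0.366% of the eEV library, and this share equals 10.4 counts in sEVs. Scaled by library totals, 3 of the 34 species lay above that limit, and with size factors of DESeq2 in place of the totals 0 did. The 3 were miR-872-3p and both arms of miR-101b. The upper end of the 95% Wilson interval for 0 of 820 counts is 0.466%, above the shares of these 3 as well. Whether depth accounts for the 0 counts of the 34 species in eEVs was not tested. Over all 82 species counted in sEVs, 62.2% had 0 counts in eEVs and 9.76% also lay above the limit. Reads carried no molecular identifiers, and all intervals and limits cover counting error only.

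**Figure D1:**
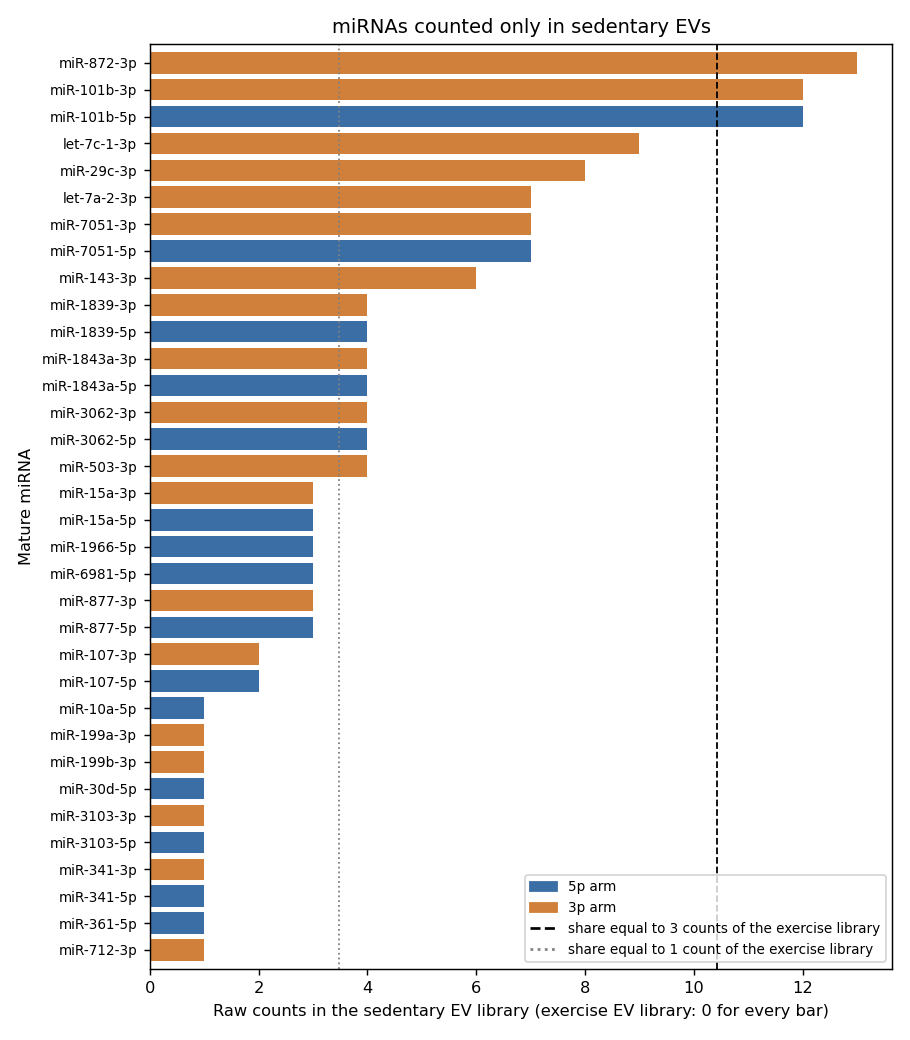
Raw counts of the 34 miRNAs in the sEV library (x axis) by mature miRNA (y axis), with 5p arms in blue and 3p arms in orange. The dashed line marks the sEV count whose share equals 3 counts of the eEV library (10.4), which 3 bars pass, and the dotted line the count whose share equals 1 eEV count (3.48), which 16 bars pass.

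miR-872-3p had the most counts. Its 13 counts in sEVs are 0.456% of the library (95% Wilson interval 0.267% to 0.779%), against 0 counts in eEVs. At the sEV share, 3.74 counts would have been expected in eEVs. The lower end of the interval lies below the eEV limit, so with the counting error of the 13 counts the sEV share is not placed above it. A difference between the libraries was not tested. Its hairpin lies at chr4:94665157-94665237 on the plus strand of GRCm38, in an intron of Ift74, which encodes a protein of intraflagellar transport in cilia. The 5p arm of the hairpin had 0 counts in both libraries.

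miR-101b, a family known for repressing the Polycomb methyltransferase Ezh2, had 12 counts on the 3p arm and 12 on the 5p arm in sEVs. Each arm made up 0.421% of the library (0.241% to 0.734%), against 0 counts in eEVs, and the lower interval end again lies under the eEV limit. The hairpin lies at chr19:29135279-29135375 on the plus strand, in an intron of Rcl1. The sequence of the hairpin is shown with both arms in capitals because the table gave them the same count.
Mir101b: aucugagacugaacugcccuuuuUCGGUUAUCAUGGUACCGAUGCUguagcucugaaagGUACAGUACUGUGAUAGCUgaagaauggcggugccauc
The 2 arms share no run of more than 4 bases, so a read of a full arm matches only 1 of them exactly. The near copy miR-101a-3p, which shares a run of 15 bases with miR-101b-3p, had 0 counts in both libraries.

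Many of these miRNAs had equal counts on both arms. Of the 34 species, 20 were the 5p and 3p arms of 10 hairpins with identical counts on both, and these held 82 of the 141 counts. The hairpins were miR-101b (12 counts on each arm), miR-7051 (7), miR-1839, miR-1843a and miR-3062 (4 each), miR-15a and miR-877 (3 each), miR-107 (2), and miR-3103 and miR-341 (1 each). In the 9 of these with both sequences, the arms shared no run of more than 7 bases. Over the whole table, 58 hairpins had both arms listed and a count, and 37.9% of them had identical arms. These 22 were counted only in sEVs for 10, only in eEVs for 9 and in both libraries for 3. All 10 of the first kind belong to the species described here, as 10 of their 22 hairpins, against 12 of the other 36. For hairpins with 0 counts in eEVs by selection, only the sEV counts of the arms could differ. With such arms counted once, 24 names with 100 counts remained, which is 3.69% of a total in which the identical arms of all hairpins were also counted once. How the reads were assigned to arms is not given in the sources used here, and its part in these counts was not tested.

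**Figure D2:**
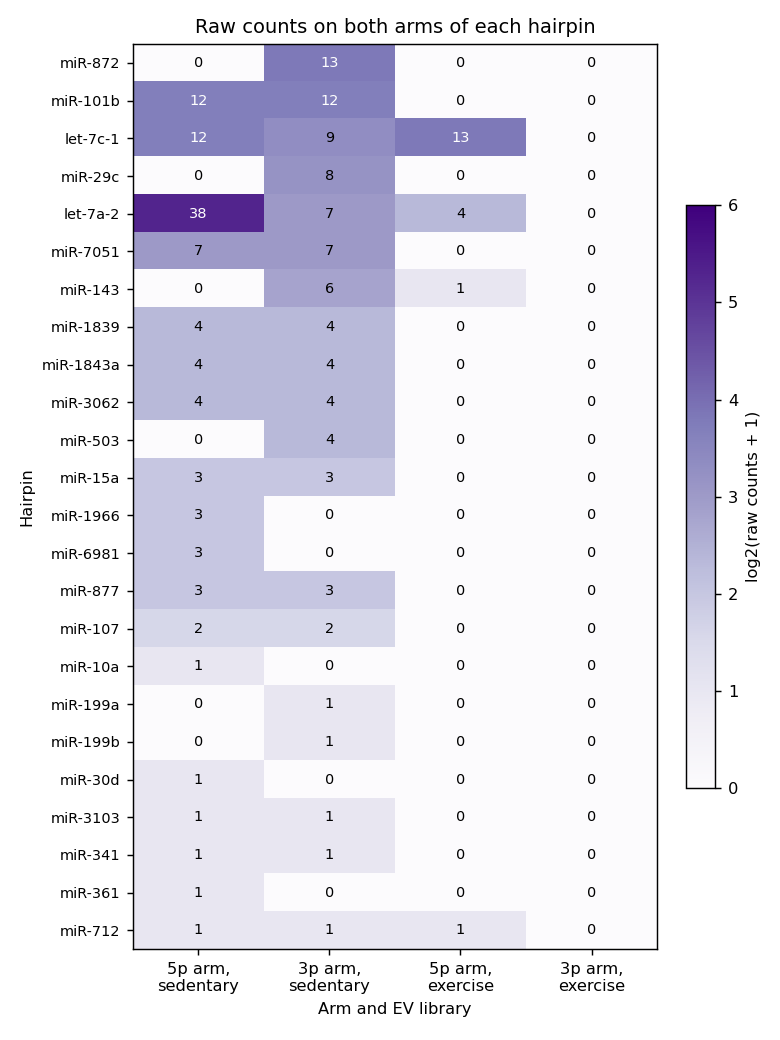
Raw counts on the 5p and 3p arm of each hairpin (y axis) in the sEV and eEV library (x axis), printed in each cell and coloured by log2(raw counts + 1). The 5p counts of let-7c-1 and let-7a-2 are those of let-7c-5p and let-7a-5p, which other hairpins also give, and 10 hairpins show the same counts on both arms in both libraries.

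For the other 14 species, the opposite arm was the clearest reading that the selection did not use. It had 0 counts in both libraries for 10 of them: miR-872, miR-29c, miR-503, miR-1966, miR-6981, miR-10a, miR-199a, miR-199b, miR-30d and miR-361. It was counted in eEVs for the remaining 4, which were let-7c-1-3p, let-7a-2-3p, miR-143-3p and miR-712-3p. miR-143 is typical of smooth muscle. Its 3p arm was counted 6 times in sEVs and not in eEVs, while its 5p arm had 1 count in eEVs and 0 in sEVs. The 6 counts are 0.210% of sEVs (0.0965% to 0.458%), a share at which 1.73 counts would be expected in eEVs. miR-712, an unusual mouse miRNA that arises from the ribosomal RNA precursor, had 1 count on the 3p arm in sEVs, and 1 count in each library on the 5p arm. The last case is at the edge of the selection, since miR-712-5p with 1 eEV count is left out, as is let-7b-3p with 5 counts in sEVs and 1 in eEVs. Just inside it are the 10 species with 1 sEV count.

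let-7 precursors give the guide strands let-7a-5p and let-7c-5p, which restrain cell growth and development, and their 3p arms are passenger strands. The sEV library gave let-7c-1-3p 9 counts against 0 in eEVs, while its guide let-7c-5p had 12 and 13. The 7 and 0 counts of let-7a-2-3p stood beside 38 and 4 of its guide let-7a-5p. The shares in sEVs were 0.316% (0.166% to 0.599%) for let-7c-1-3p and 0.246% (0.119% to 0.506%) for let-7a-2-3p, with 2.59 and 2.01 counts expected in eEVs at those shares. The guides were thus present in both libraries. Both guides also come from a second hairpin each, whose 3p arms showed the opposite pattern and are given here for comparison.
mmu-let-7a-1-3p: cUAUACAAucuacugucuuucc
mmu-let-7c-2-3p: cUAUACAAucuacugucuuucc
These sequences are identical over all 22 bases, and each had 0 counts in sEVs and 4 in eEVs. They differ from let-7c-1-3p at 5 bases. Over the 6 let-7 3p arms with a count, sEVs had 21 counts, or 0.737% (0.482% to 1.12%), and eEVs had 10, or 1.22% (0.664% to 2.23%), with overlapping intervals. The 2 identical sequences gave 8 of these 10 eEV counts, so the sum may hold the same reads under both names. The hairpin of let-7c-1 lies at chr16:77599657-77599750 in an intron of Mir99ahg, and that of let-7a-2 at chr9:41536716-41536811 in an intron of the noncoding RNA 3110039I08Rik. Their neighbours miR-99a and miR-100 had 0 counts in both libraries.

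Several members belong to families known from tissue and blood. miR-29c-3p, of a family that represses collagens and other matrix genes, had 8 counts in sEVs, 0.281% of the library (0.142% to 0.553%), with 2.30 counts expected in eEVs at that share. Its nearest listed sequence, miR-29b-3p, shares a run of 17 bases with it and had 0 counts in both libraries. Of the 7 listed arms of miR-29, it was the only one counted. Its hairpin, at chr1:195037547-195037634, overlaps an exon of the noncoding RNA A330023F24Rik on the same strand and an exon of Cd46 on the other, and miR-29b-2, 427 bases away, had 0 counts. miR-15a, which with miR-16 represses the survival gene Bcl2, had 3 counts on each arm. It lies in an intron of the long noncoding RNA Dleu2. The sequences of miR-15a-5p and of its seed mate miR-16-5p show the common seed.
mmu-miR-15a-5p: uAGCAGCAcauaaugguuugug
mmu-miR-16-5p: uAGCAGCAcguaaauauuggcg
Counts of miR-16-5p were 7 and 0 in sEVs and eEVs, and the 15 listed arms of this family together had 14 and 0. A second hairpin also gives miR-16-5p, and its other arm, miR-16-2-3p, had 1 count in sEVs. These 14 counts are 0.491% of sEVs (0.293% to 0.823%), an interval that includes the eEV limit.

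miR-107, from an intron of Pank1, a kinase of coenzyme A synthesis, had 2 counts on each arm. The 3p arm is printed beside miR-103-3p, a miRNA of the same seed from another hairpin.
mmu-miR-107-3p: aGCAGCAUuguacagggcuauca
mmu-miR-103-3p: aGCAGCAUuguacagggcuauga
These share a run of 21 bases, and miR-103-3p had 0 counts in both libraries. miR-199a-3p and miR-199b-3p, miRNAs of mesenchymal cells, had 1 count each. They have the same sequence, shown here because the table lists it under 2 names.
mmu-miR-199a-3p: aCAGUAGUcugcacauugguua
mmu-miR-199b-3p: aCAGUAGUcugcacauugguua
Their hairpins lie in introns of the dynamin genes Dnm3, Dnm2 and Dnm1 on the opposite strand, that in Dnm3 also overlaps an exon of the noncoding RNA Dnm3os on its own strand, and a read of this sequence cannot be placed on 1 of them. miR-503-3p, the passenger arm of a hairpin linked to cell cycle control, had 4 counts. The 7 species with 4 counts were this arm and both arms of miR-1839, miR-1843a and miR-3062, each at 0.140% of sEVs (0.0546% to 0.360%) with 1.15 counts expected in eEVs. The 5 other annotated hairpins within 10 kb of it on the X chromosome, among them miR-322 at 201 bases, had 0 counts. miR-10a-5p, from the Hoxb gene cluster, miR-30d-5p and miR-361-5p, from an intron of Chm, had 1 count each. The 12 listed miR-30 arms had 10 counts in sEVs and 4 in eEVs, of which miR-30b-3p gave 9 and 4.

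**Figure D3:**
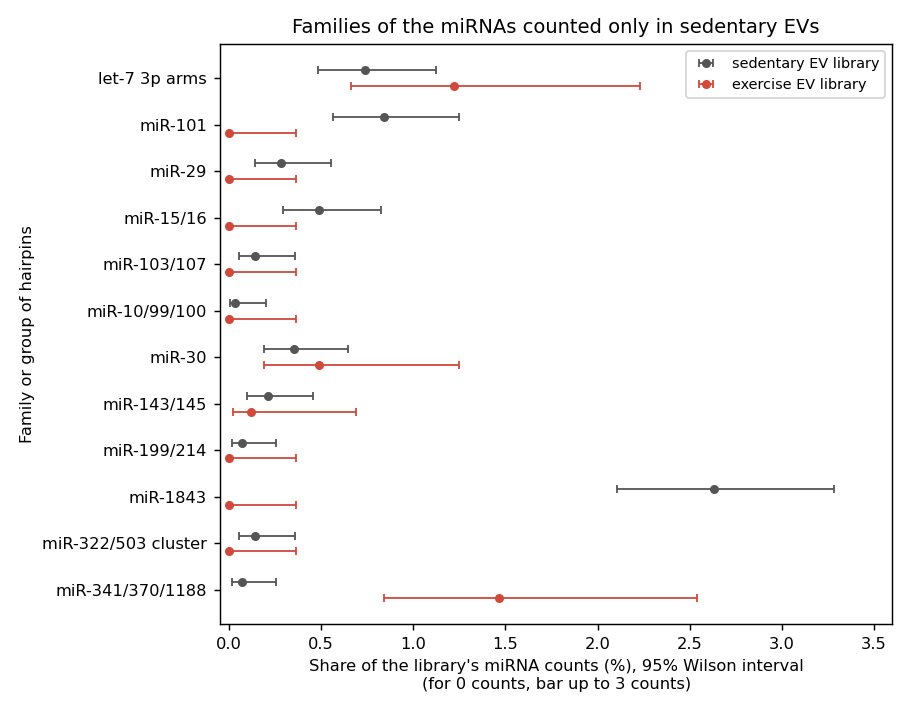
Share of miRNA counts (x axis, %) of 12 families or groups of hairpins (y axis) in the sEV library (grey) and the eEV library (red). Points are summed shares, bars are 95% Wilson intervals, and a group with 0 counts has a bar up to 3 counts (0.366%). miR-1843 had the highest sEV share (2.63%) and the group of miR-341, miR-370 and miR-1188 the highest eEV share (1.46%). The 0 in eEVs of the selected species follows from how they were chosen, and no comparison is read from their bars.

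Some hairpins lie inside longer RNAs. miR-1843a had 4 counts on each arm, and its hairpin at chr12:80391613-80391677 lies inside Scarna3b, a small Cajal body RNA, within an intron of Dcaf5. Both mature sequences are contained whole in the Scarna3b transcript. The 5p arm differs from miR-1843b-5p mainly by a shift of the ends, and is printed beside it.
mmu-miR-1843a-5p: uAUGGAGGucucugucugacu
mmu-miR-1843b-5p: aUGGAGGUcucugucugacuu
These share a run of 20 bases. For miR-1843b-5p the counts were 35 in sEVs and 0 in eEVs, so the 4 counts of miR-1843a-5p cannot be assigned with certainty to its own hairpin. The 4 listed arms of miR-1843a and miR-1843b had 75 and 0 counts. miR-1839 had 4 counts on each arm and overlaps an exon of the noncoding RNA 2900076A07Rik, which contains the whole 5p sequence.

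3 of the 20 located hairpins overlapped an exon of a protein-coding gene on the same strand. These were miR-7051 in Etfb, a subunit of the electron transfer flavoprotein, with 7 counts on each arm (0.246%, interval 0.119% to 0.506%), miR-3062 in Pfas, an enzyme of purine synthesis, with 4, and miR-3103 in BC017158, with 1. An exon here is that of any annotated transcript, retained introns included. The hairpin of miR-7051, at chr7:43457497-43457569 on the plus strand, is shown with its arms in capitals.
Mir7051: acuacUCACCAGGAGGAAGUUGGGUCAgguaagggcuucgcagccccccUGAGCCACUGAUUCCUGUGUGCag
Its 3p sequence is contained whole in a processed transcript of Etfb, and the 5p sequence is in no other annotated transcript. miR-877, which had 3 counts on each arm, lies in an intron of Abcf1 and is known as a mirtron, a hairpin released by splicing in place of Drosha. It was the only one counted of the 7 mirtrons examined. In all, 5 of the 20 located hairpins, miR-877 included, lay in introns of protein-coding genes on the same strand, 7 within noncoding RNAs, 1 inside the small Cajal body RNA, 2 opposite a gene and 2 between genes.

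miR-341 comes from the imprinted Dlk1-Dio3 region and lies in an intron of Rian at chr12:109611500-109611595. Each of its arms had 1 count in sEVs and 0 in eEVs. The closest hairpin, miR-1188, is 227 bases away and had 0 counts in sEVs and 3 on each arm in eEVs, as did miR-370 at 6663 bases. Neighbouring hairpins of this region were thus counted in different libraries, with numbers that do not exceed 3 on any arm. Of the 13 neighbours found within 10 kb of the located hairpins, 10 had 0 counts in both libraries, and the 3 with counts were miR-1188, miR-370 and, next to miR-15a, miR-16-1. The sEV counts at miR-16-1 were those of miR-16-5p, which its second hairpin also gives, while miR-16-1-3p had 0 counts.

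No seed mate was counted in eEVs, but most of these species, such as miR-872-3p and both arms of miR-7051, had no listed mate. Among the 28 species with a sequence, the seed mates listed in the table that had a count were miR-16-5p for miR-15a-5p and the miR-199 pair for each other, all counted only in sEVs. This holds for mates with a RefSeq sequence, which 1623 of the 1915 listed mouse miRNAs and 57 of the 66 species counted in eEVs had. With the seed taken as bases 2 to 7, let-7c-1-3p and let-7a-2-3p also became mates of each other, and again no mate was counted in eEVs.

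By cell source, 15 of the 34 species with 59 counts fell in at least 1 of 12 lists of miRNAs typical of a cell type, locus or class, and 19 species with 82 counts fell in none. The matching share over all detected species was not computed, so these numbers are not read as high or low. The liver list held both arms of miR-101b, with identical counts, which gave 24 of its 44 sEV counts against 0 in eEVs. Only 4 of its 26 listed species had a count, and the other 2 of these were arms of miR-122, set aside by rule. The fibroblast and smooth muscle list held miR-143-3p and the miR-199 pair, which were all 8 of its sEV counts, against 1 count in eEVs. The red cell list held the arms of miR-15a, 6 of 42 counts, against 54 counts in eEVs. The platelet list held the arms of miR-107 and the miR-199 pair, 6 of 64 counts, against 18. The white blood cell list held only miR-29c-3p, 8 of 1531 counts, against 391, and 1289 and 362 of these were miR-23a-3p. The endothelial list held miR-10a-5p, 1 of 24 counts, against 9, and the Dlk1-Dio3 list the arms of miR-341, 2 of 2 counts, against 6, all of miR-370. This list did not hold miR-1188, which had 3 further eEV counts on each arm. The mirtron list had the 6 counts of miR-877 and none in eEVs. No member fell in the miR-17-92 list (1 count in sEVs and 18 in eEVs) or the neuronal list (0 and 2), and the lists of striated muscle and epithelium had 0 counts in both libraries. A species can stand in more than 1 list. Because the main miRNAs of liver, platelets and blood cells were set aside by rule, these shares do not describe what the sEVs carried from each cell type.

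The absence of a species from eEVs depended on its count in sEVs. Of the 27 species with 1 to 3 sEV counts, 23 had 0 counts in eEVs (85.2%). This was 20 of 26 (76.9%) with 4 to 9 counts, 4 of 9 (44.4%) with 10 to 13, and 4 of 20 (20.0%) with 14 or more. The 34 species lay in the lower classes, with 18, 13 and 3 species in the first 3 and 0 in the last. Their median was 3 counts. With the sEV library reduced to the eEV total of 820 counts, 21.3 of the 34 would still be expected to hold 1 or more counts, by the hypergeometric distribution. The 34 were chosen for 0 counts in eEVs, so this expectation cannot be compared with what the eEV library held. The 18 with 3 counts or fewer were both arms of miR-15a and miR-877, miR-1966-5p and miR-6981-5p (3 counts), both arms of miR-107 (2 counts), and 10 species with 1 count, among them both arms of miR-3103 and of miR-341.

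**Figure D4:**
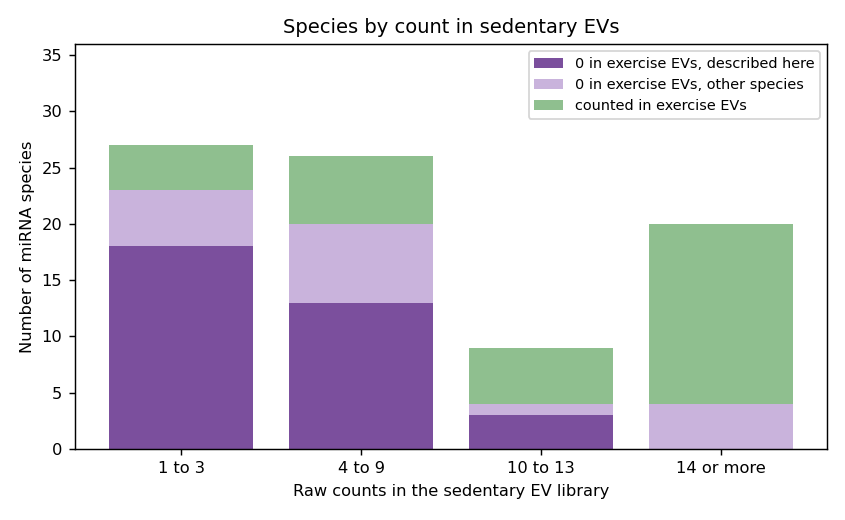
Number of miRNA species (y axis) by raw count in the sEV library (x axis), split by whether they were counted in eEVs (green), had 0 counts in eEVs and are described here (dark purple), or had 0 counts and were set aside (light purple). The share with 0 counts in eEVs is 85.2% in the lowest class and 20.0% in the highest.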

How the data were processed

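EV RNA from 1 pool of 20 mice per group was prepared with the TruSeq Small RNA kit and sequenced on a HiSeq2000 by the authors. The deposited raw counts give reads per mature miRNA without normalization. The deposited normalized table holds each species as a fraction of the library's miRNA counts, made by the authors from the same counts. The aligner, miRNA release and build behind the counts are not given in the sources used here. Another 67 columns, whose names lack the mouse prefix, were not used.

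A species was detected at 1 or more counts. Members were the species with 0 counts in eEVs after leaving out the let-7 5p arms, miR-98-5p, both arms of miR-16, miR-21a, miR-23a, miR-23b, miR-24, miR-27a, miR-27b, miR-122, miR-126a, miR-142a, miR-146a, miR-150, miR-155, miR-181a, miR-181b, miR-191, miR-192, miR-194, miR-223, miR-1291 and miR-1843b, and the miR-297, miR-466, miR-467, miR-669, miR-3470 and miR-3473 families. Every member with 4 or more counts was named. The members, lists and families were chosen with earlier results of these data known. Shares have 95% Wilson intervals. With 1 library per group no test was run, and edgeR 4.0.16 and DESeq2 1.42.0 (R 4.3.3) served only for scaling factors. Sequences and positions are from RefSeq GRCm38.p6, and overlapping genes from GENCODE M21 (GRCm38). The intervals and the expectation at lower depth were tested on simulated data. Counts and intervals were computed in Python (3.11.15) with pandas 2.3.3, numpy 2.4.6 and scipy 1.17.1, and plots with matplotlib 3.10.9. The alternatives were other count thresholds, the normalized table, identical arms counted once, a reduced depth, other scalings and totals, a limit of 1 count and a shorter seed.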

Additional observations from a re-analysis of the deposited data

How the results depend on the processing

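Of 19 alternatives, 11 left the value within 1.5 times of a count or within the interval of a share. The number of species, 34, was 22 with 3 or more counts required in sEVs and 9 with 5 or more. With sEVs reduced to the depth of the eEV library, 21.3 of the 34 would be expected to keep a count in sEVs. Their summed share of 4.95% was 9.03% of a total without the most abundant species, and 3.69% with identical arms counted once in the species and in the total. The 3 species above the limit of the eEV library were 0 with size factors of DESeq2 and 16 with a limit of 1 count. Of the 4 species whose opposite arm was counted in eEVs, 2 remained with 2 or more counts required there. The normalized table gave the same 34 species. Depth limits every value, since with 820 counts in eEVs a species under 0.366% can be missed. No paired analysis was possible because each group has 1 library.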
